A study of Mus musculus with 18 samples.

Results

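The transcripts of 10 cytokine receptor chains were followed in mouse splenic B cells before and after 4 h of stimulation through an endosomal Toll-like receptor (TLR). The chains were Il4ra, Il21r, Il10ra, Il2ra, Il2rg, Il6ra, Il6st, Ifnar1, Ifnar2 and Ifngr1, taken by gene symbol from the 23420 genes measured in each of 18 RNA-seq libraries. All mice were MRL/lpr, a lupus-prone strain deficient in Fas through its lpr allele, and were 5 to 7 weeks old. In 1 arm all mice were female and Tlr7-/-, and carried either Tlr9+/- (called Tlr9het here) or Tlr997, a knock-in at the Tlr9 locus that joins the endosomal and transmembrane parts of TLR9 to the signaling (TIR) domain of TLR7. These B cells were left unstimulated or given the TLR9 agonist CpG (ODN 1826) at 10 µg/ml, with 3 libraries in each of 4 groups. The sample titles write the control genotype as Tlr9+/- Tlr7-/-, whereas the treatment protocol writes Tlr9-/- Tlr7-/-, and the titles were followed. In the other arm all mice were male and Tlr9-/-, and carried Tlr779, TLR7 with the TIR domain of TLR9, with 3 libraries left unstimulated and 3 given the TLR7 agonist CL097 at 5 µg/ml. The knock-ins and deletions were in the germline and so in every cell type, and the B cells were depleted of other cells with beads but were not divided into subsets. The study's methods give the age as 5 weeks for the females and 5 to 7 weeks for the males, so age may differ too. The arms differ in sex, genotype and agonist at once, which cannot be told apart from each other or from age. Their values are therefore given side by side with no test between them.

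Cytokine receptors of this kind are built from chains that pair at the cell surface and signal through kinases of the JAK family and transcription factors of the STAT family. Some chains bind 1 ligand, such as Il2ra for IL-2 or Il6ra for IL-6, and others are shared, such as Il2rg (the common gamma chain of the receptors for IL-2, IL-4, IL-7, IL-9, IL-15 and IL-21) and Il6st (gp130, the shared signal chain of the IL-6 family). In B cells IL-4 and IL-21 act on class switching and plasma cell differentiation, and type I and type II interferons act through Ifnar1 with Ifnar2 and through Ifngr1 with Ifngr2.

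The 18 libraries fitted their labels in part. Tlr7 transcripts lay at 2.68 to 5.36 log2 CPM (counts relative to the total of the library, on the log2 scale) in the Tlr7-/- arm against 6.61 to 7.82 in the Tlr779 arm, and unstimulated Tlr997 cells (4.81 to 5.19) lay above unstimulated Tlr9het cells (2.68 to 3.48). Tlr9 transcripts lay at 6.93 to 7.47 in the Tlr9-/- arm and at 7.02 to 8.08 in the other, so the Tlr9 level does not tell these genotypes apart, and which part of the gene was deleted was not examined. By design the Tlr997 allele carries the coding sequence of the TLR7 TIR domain, and the Tlr779 allele that of the TLR9 TIR domain. Reads from these inserts could count toward Tlr7 in Tlr997 cells and toward Tlr9 in Tlr779 cells. Their part in these levels was not tested. The summed level of 6 B cell markers was 5520 to 7340 CPM in unstimulated libraries and 1650 to 3160 CPM in stimulated libraries. The summed level of 9 T cell markers was at most 38.3 CPM, of 5 monocyte and macrophage markers 64.6 to 415 CPM, of 4 neutrophil markers 16.6 to 120 CPM, of 4 NK cell markers at most 13.9 CPM, of 3 plasma cell markers 20.8 to 76.4 CPM, of 3 plasmacytoid dendritic cell markers at most 8.83 CPM and of 3 erythroid markers 12.2 to 474 CPM, of which Hba-a1 was below -4 log2 CPM in every library. In bulk RNA, fewer cells of a type and less RNA per cell cannot be told apart. No counts came with the values, so the number of reads behind a value is unknown and no counting interval is given.

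All 10 chains were transcribed in unstimulated B cells. Per kilobase of exon, Il2rg was the highest chain in all 3 genotypes, at 7.76 ± 0.09 log2 CPM per kb in Tlr9het, 7.80 ± 0.09 in Tlr997 and 7.83 ± 0.07 in Tlr779 (mean ± SD, n = 3). Il10ra followed, at 5.98 ± 0.07 log2 CPM per kb in Tlr9het, 5.99 ± 0.07 in Tlr997 and 5.79 ± 0.19 in Tlr779, and its libraries overlapped those of Il21r (5.84 ± 0.12, 5.81 ± 0.27 and 5.64 ± 0.31). Next in the same order in each genotype came Ifngr1 (5.58 ± 0.11 in Tlr9het), Ifnar1 (5.32 ± 0.04), Il4ra (4.62 ± 0.20), Ifnar2 (4.40 ± 0.17), Il2ra (3.58 ± 0.27), Il6st (3.19 ± 0.02) and Il6ra (1.72 ± 0.05), all as log2 CPM per kb. Il4ra and Ifnar2 overlapped in all 3 genotypes, Il21r and Ifngr1 in Tlr997 and Tlr779, and Il2ra and Il6st in Tlr779, whereas the other neighbors in this order did not. Exon length was that of all annotated exons of a gene together, so a chain transcribed mainly as a shorter form is placed too low.

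**Figure D1:**
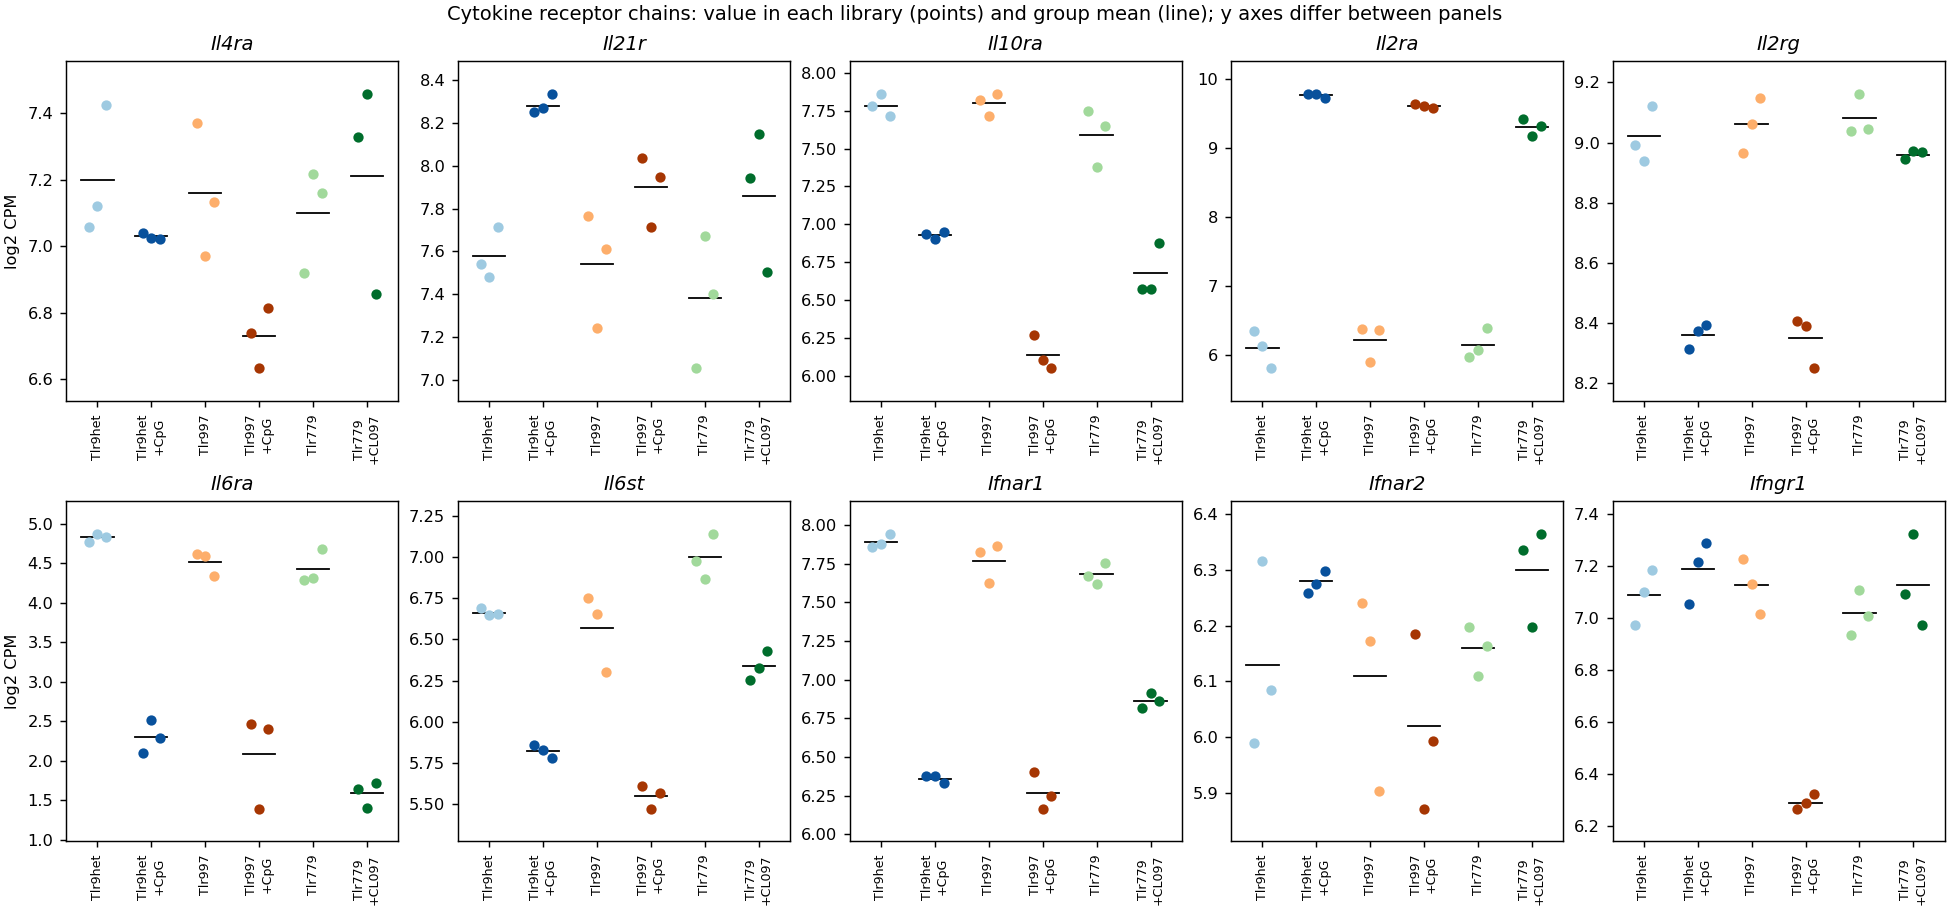
Transcript level (log2 CPM) of each of the 10 receptor chains in the 18 libraries, in 6 groups of 3, with the group mean as a line and a separate y axis for each chain. Il2ra lies at 5.80 to 6.38 in every unstimulated library and at 9.18 to 9.79 in every stimulated library, and Ifngr1 is low only in the 3 Tlr997 libraries with CpG (6.27 to 6.33).

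With agonist, Il2ra rose and Il10ra, Il6ra, Il6st and Ifnar1 fell in all 3 comparisons, and Ifnar2 and Il4ra were called in none. A chain is said to have risen or fallen, or is counted as called, where limma's moderated test gave an adjusted p below 0.05 over all tested genes together with an absolute log2 fold change above 0.5. All 10 chains passed the filter on low values in both arms. With CpG, 2 chains rose and 5 fell in Tlr9het cells, 1 rose and 6 fell in Tlr997 cells, and with CL097 1 rose and 4 fell in Tlr779 cells. The share of all tested genes called higher was 29.7% in Tlr9het, 29.6% in Tlr997 and 22.7% in Tlr779, and the share called lower was 28.2%, 26% and 23.6%. The 5 of 10 chains called with CL097 lie near the share of all genes called there in either direction. The median log2 fold change of the 10 chains was -0.41 with CpG in Tlr9het, -0.77 in Tlr997 and 0.00 with CL097 in Tlr779, against 0.04, 0.07 and -0.02 over all tested genes. The summed B cell marker level was lower in stimulated than in unstimulated libraries of every genotype, and the T cell marker sum was higher with CpG in every same-numbered pair, with ranges that overlapped (7.93 to 17.8 CPM without and 16.9 to 38.3 CPM with CpG in Tlr9het, 4.66 to 17.7 and 15.5 to 29.6 CPM in Tlr997). The NK cell marker sum was 1.96 to 5.61 CPM without and 4.23 to 13.9 CPM with CpG in Tlr9het, and 0.434 to 3.86 and 4.64 to 7.59 CPM in Tlr997. The part of these markers in the responses was not tested.

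**Figure D2:**
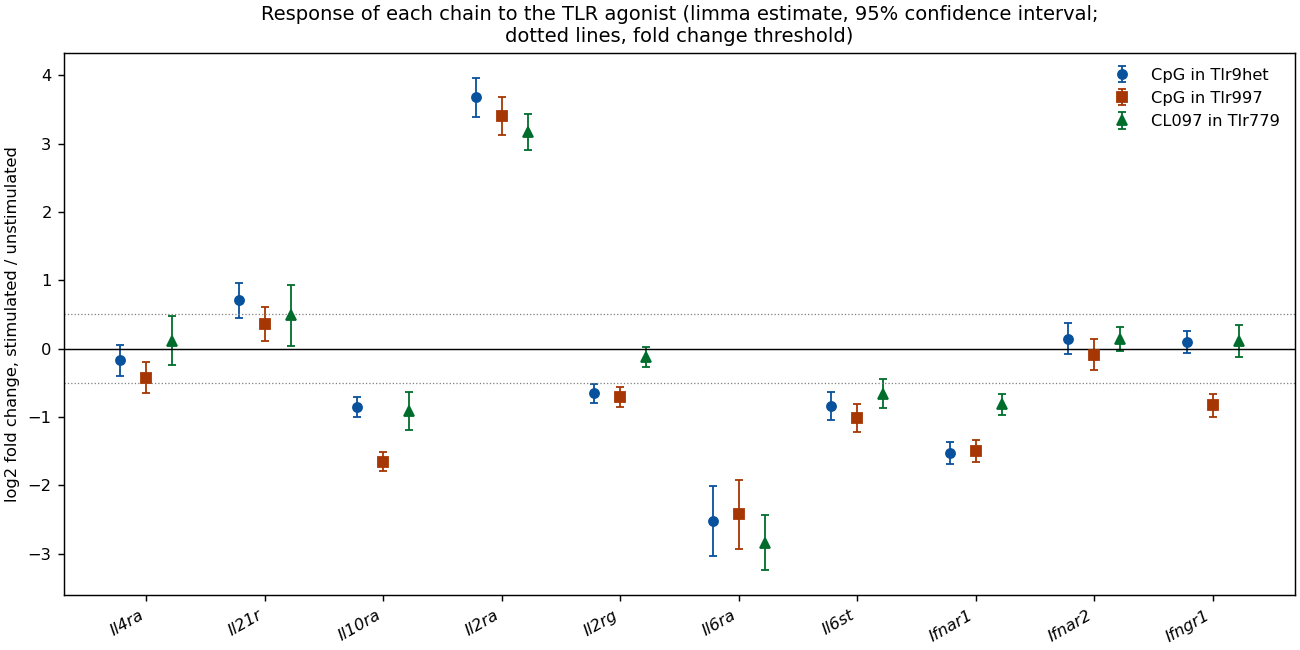
Log2 fold change (stimulated over unstimulated, y axis) of each chain with CpG in Tlr9het, CpG in Tlr997 and CL097 in Tlr779, as limma estimates with 95% confidence intervals and dotted lines at the fold change threshold of 0.5. Il2ra stands above 3 in all 3 responses, Il6ra below -2, and Ifngr1 at -0.83 with CpG in Tlr997 against 0.10 in Tlr9het and 0.11 with CL097.

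Il2ra, the alpha chain (CD25) that raises the affinity of the IL-2 receptor, showed the largest response of the 10. Its level was 6.35, 6.12 and 5.80 log2 CPM in unstimulated Tlr9het libraries and 9.78, 9.79 and 9.73 with CpG. In Tlr997 it was 6.37, 5.90 and 6.37 without and 9.64, 9.61 and 9.59 with CpG, and in Tlr779 5.97, 6.07 and 6.38 without and 9.42, 9.18 and 9.33 with CL097. Every stimulated library lay above every unstimulated one by more than the whole range within a group. The rise was 12.8-fold with CpG in Tlr9het (log2 fold change 3.68, 95% CI 3.39 to 3.96, adjusted p = 3.4e-11), 10.6-fold in Tlr997 (3.40, 3.12 to 3.69, adjusted p = 9e-11) and 8.97-fold with CL097 in Tlr779 (3.17, 2.90 to 3.43, adjusted p = 2e-06). It ranked 83rd highest of 11494 tested genes by log2 fold change in Tlr9het, 114th in Tlr997 and 56th of 11082 in Tlr779. Mean levels rose from 68.9 to 871 CPM in Tlr9het. The difference between the CpG responses of Tlr997 and Tlr9het was -0.27 on the log2 scale (95% CI -0.68 to 0.13, adjusted p = 0.51).

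The promoter of Il2ra is shown because this chain moved most and because its 250 bases before the start held a match to the NF-κB consensus, a factor that TLRs activate. It is given 5′ to 3′ from RefSeq (GRCm38.p6), chr2:11642542-11642791 on the plus strand, and the capitals mark overlapping matches on both strands at -201 to -191 from the start.
Il2ra: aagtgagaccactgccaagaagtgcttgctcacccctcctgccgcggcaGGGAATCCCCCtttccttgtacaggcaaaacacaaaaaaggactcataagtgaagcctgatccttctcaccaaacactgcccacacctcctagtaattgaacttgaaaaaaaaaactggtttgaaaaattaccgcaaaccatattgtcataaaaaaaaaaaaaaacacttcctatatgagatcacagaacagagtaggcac
RefSeq promoters matched 9 of the 10 chains by symbol, all but Il10ra. Both strands of each 250 base window were searched for the NF-κB consensus, the GAS element (TTCNNNGAA, bound by STAT dimers) and the ISRE core (GAAANNGAA, bound by interferon regulatory factors). Of 32851 windows of the same length, 7.3% held the NF-κB consensus, 7.0% the GAS element and 7.1% the ISRE core. Among the 9 chains the NF-κB consensus was found in Il2ra alone and the GAS element in Ifnar2 alone, and the ISRE core in none. A match in these letters is a description and not a binding site.

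Il2rg, the common gamma chain, fell with CpG in both genotypes and was not called with CL097. It was at 8.99, 8.94 and 9.12 log2 CPM in unstimulated Tlr9het libraries and at 8.31, 8.37 and 8.40 with CpG, and in Tlr997 at 8.97, 9.06 and 9.15 without and 8.41, 8.39 and 8.25 with CpG. The groups did not overlap in either genotype, and Il2rg fell to 63.5% (log2 fold change -0.66, 95% CI -0.80 to -0.52, adjusted p = 6.9e-07) and 61.2% (-0.71, -0.85 to -0.57, adjusted p = 3.6e-07) of the unstimulated level. With CL097 in Tlr779 its libraries went from 9.04, 9.16 and 9.05 to 8.94, 8.97 and 8.97 log2 CPM, a difference of -0.12 (95% CI -0.26 to 0.02, adjusted p = 0.13).

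Il21r, the ligand-binding chain of the IL-21 receptor, rose with CpG in Tlr9het. Its libraries were at 7.54, 7.48 and 7.71 log2 CPM without and 8.25, 8.27 and 8.34 with CpG, with no overlap (1.63-fold, log2 fold change 0.71, 95% CI 0.46 to 0.96, adjusted p = 9.9e-05). In Tlr997 the libraries went from 7.76, 7.24 and 7.61 to 8.04, 7.71 and 7.95 and overlapped, and the log2 fold change of 0.36 (95% CI 0.11 to 0.61, adjusted p = 0.014) was under the fold threshold. With CL097 in Tlr779 they went from 7.05, 7.67 and 7.40 to 7.94, 8.15 and 7.50, also with overlap, at 0.49 (95% CI 0.04 to 0.94, adjusted p = 0.057). That last value depends on single libraries: without Tlr779 replicate 2 it was 0.64 (adjusted p = 0.028) and without replicate 3 with CL097 it was 0.67 (adjusted p = 0.012), and both would be called. The difference between the genotypes' CpG responses was -0.35 (95% CI -0.70 to 0.01, adjusted p = 0.33).

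Il4ra, the ligand-binding chain for IL-4 and IL-13, was called in no response. It lay at 7.06 to 7.43 log2 CPM in unstimulated Tlr9het libraries and at 7.02 to 7.04 with CpG (log2 fold change -0.17, 95% CI -0.40 to 0.05, adjusted p = 0.15). In Tlr997 it lay at 6.97 to 7.37 without and 6.63 to 6.82 with CpG, and the log2 fold change of -0.43 (95% CI -0.65 to -0.20, adjusted p = 0.0023) did not reach the fold threshold, but without unstimulated Tlr997 replicate 2 it was -0.52 (adjusted p = 0.00073). In Tlr779 it lay at 6.92 to 7.22 without and 6.86 to 7.46 with CL097 (0.12, 95% CI -0.25 to 0.48, adjusted p = 0.54). Il4ra and Il21r are neighbors on chromosome 7, read in the same direction with 24.0 kb between them (GENCODE M21, GRCm38). Il4ra and Ifnar2 are known to give soluble forms by splicing, which values per gene do not separate.

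Both chains of the IL-6 receptor fell with each agonist. Il6ra, which binds IL-6, was at 4.77, 4.87 and 4.84 log2 CPM in unstimulated Tlr9het libraries and at 2.10, 2.52 and 2.29 with CpG. It was at 4.614, 4.599 and 4.338 without and 2.47, 1.40 and 2.40 with CpG in Tlr997, and at 4.29, 4.32 and 4.68 without and 1.64, 1.40 and 1.72 with CL097 in Tlr779. No stimulated library reached any unstimulated one, and the level fell to 17.4% in Tlr9het (log2 fold change -2.53, 95% CI -3.04 to -2.02, adjusted p = 3.9e-07), 18.6% in Tlr997 (-2.43, -2.94 to -1.92, adjusted p = 6.7e-07) and 14% in Tlr779 (-2.84, -3.24 to -2.44, adjusted p = 8.4e-06). The mean stimulated levels were 3.02 to 4.96 CPM, where single reads weigh most, and Tlr997 replicate 2 with CpG stood below the other Tlr997 libraries with CpG. The difference between the genotypes' CpG responses was 0.10 (95% CI -0.62 to 0.82, adjusted p = 0.92), an interval that holds sizeable differences in either direction.

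Il6st fell less than Il6ra. Its libraries went from 6.69, 6.65 and 6.66 to 5.86, 5.83 and 5.78 log2 CPM with CpG in Tlr9het (log2 fold change -0.84, SE 0.09, adjusted p = 2.3e-06). They went from 6.75, 6.65 and 6.30 to 5.61, 5.47 and 5.57 in Tlr997 (-1.02, SE 0.09, adjusted p = 3.8e-07), and from 6.98, 6.87 and 7.14 to 6.26, 6.33 and 6.43 with CL097 in Tlr779 (-0.66, SE 0.09, adjusted p = 0.00037). The groups did not overlap in any of the 3 comparisons. Unstimulated Tlr997 replicate 3, the lowest Il6st library of its group, also had the lowest summed T cell (4.66 CPM), monocyte and macrophage (108 CPM), neutrophil (27.1 CPM), NK cell (0.434 CPM) and plasma cell (45.4 CPM) markers of its group. Its B cell, erythroid and plasmacytoid dendritic cell sums were not the lowest. The part of these markers was not tested. Without this library the Il6st response in Tlr997 was -1.15.

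Il10ra, the ligand-binding chain of the IL-10 receptor, fell in all 3 responses and fell further in Tlr997 than in Tlr9het. It was at 7.78, 7.86 and 7.71 log2 CPM in unstimulated Tlr9het libraries and at 6.93, 6.90 and 6.95 with CpG, which is 55.3% of the unstimulated level (log2 fold change -0.86, 95% CI -0.997 to -0.713, adjusted p = 5.3e-08). In Tlr997 it was at 7.82, 7.72 and 7.86 without and 6.27, 6.11 and 6.05 with CpG, or 31.8% (-1.65, 95% CI -1.80 to -1.51, adjusted p = 1.1e-10). In Tlr779 it was at 7.75, 7.38 and 7.65 without and 6.58, 6.58 and 6.88 with CL097, or 53.1% (-0.91, 95% CI -1.19 to -0.64, adjusted p = 0.00031). The unstimulated groups of the 3 genotypes overlapped, and the Tlr997 libraries with CpG lay below all other Il10ra values of the series.

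The chains of the type I interferon receptor responded differently although they pair with each other. Ifnar1 was at 7.86, 7.88 and 7.94 log2 CPM in unstimulated Tlr9het libraries and at 6.38, 6.38 and 6.33 with CpG. It was at 7.83, 7.63 and 7.86 without and 6.41, 6.17 and 6.25 with CpG in Tlr997, and at 7.67, 7.62 and 7.75 without and 6.82, 6.91 and 6.87 with CL097 in Tlr779. It fell to 34.6% (log2 fold change -1.53, 95% CI -1.69 to -1.37, adjusted p = 4.4e-10), 35.4% (-1.50, -1.66 to -1.34, adjusted p = 7.1e-10) and 56.9% (-0.82, -0.97 to -0.66, adjusted p = 2.5e-05) of the unstimulated level, with no overlap in any comparison. The CpG responses of both genotypes differed by 0.03 (95% CI -0.19 to 0.25, adjusted p = 0.92).

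Ifnar2, the high-affinity chain of the same receptor, lay at 5.99 to 6.32 log2 CPM without and 6.26 to 6.30 with CpG in Tlr9het, at 5.90 to 6.24 and 5.87 to 6.19 in Tlr997, and at 6.11 to 6.20 and 6.20 to 6.36 with CL097 in Tlr779. The log2 fold changes were 0.15 (95% CI -0.08 to 0.38), -0.09 (-0.32 to 0.14) and 0.14 (-0.03 to 0.31), with adjusted p of 0.23, 0.47 and 0.13, and the groups overlapped in each comparison. Both intervals with CpG end well above the fall of Ifnar1. The genes lie 79.6 kb apart on chromosome 16, in a run of receptor genes read in the same direction: Ifnar2 (91372783 to 91405589), Il10rb 0.6 kb further on, Ifnar1 (91485238 to 91507441) and Ifngr2 (GENCODE M21, GRCm38). Il10rb, the second chain of the IL-10 receptor, fell in all 3 responses (log2 fold change -0.86, -0.93 and -0.64), and Ifngr2, the second chain of the IFN-γ receptor, fell with CpG (-0.67 in both genotypes) but was not called with CL097 (-0.18, adjusted p = 0.12). Of these 4 neighbors, Ifnar2 alone was called in no response.

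Both promoters are shown because the chains pair with each other and their responses differed. They are RefSeq windows (GRCm38.p6) of the plus strand, 5′ to 3′, Ifnar1 at chr16:91484965-91485214 and Ifnar2 at chr16:91372533-91372782. The capitals mark the GAS match at -214 to -206 of Ifnar2, and Ifnar1 held none of the 3 motifs searched.
Ifnar1: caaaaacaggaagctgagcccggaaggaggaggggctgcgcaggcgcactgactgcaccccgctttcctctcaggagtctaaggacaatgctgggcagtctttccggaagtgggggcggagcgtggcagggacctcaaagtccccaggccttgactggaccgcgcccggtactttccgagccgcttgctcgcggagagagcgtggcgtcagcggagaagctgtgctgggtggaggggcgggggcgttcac
Ifnar2: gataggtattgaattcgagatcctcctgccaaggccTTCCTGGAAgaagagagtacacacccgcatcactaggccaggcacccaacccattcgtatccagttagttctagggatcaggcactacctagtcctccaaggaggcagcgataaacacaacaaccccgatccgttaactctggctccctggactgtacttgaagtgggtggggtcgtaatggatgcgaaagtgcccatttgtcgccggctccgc

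Ifngr1, the ligand-binding chain of the IFN-γ receptor, fell with CpG in Tlr997 and was called in neither other response. Its level was 6.974, 7.103 and 7.186 log2 CPM in unstimulated Tlr9het libraries and 7.06, 7.22 and 7.29 with CpG. In Tlr997 it was 7.23, 7.13 and 7.02 without and 6.27, 6.29 and 6.33 with CpG, and in Tlr779 it was 6.94, 7.11 and 7.01 without and 7.09, 7.32 and 6.98 with CL097. The groups overlapped in Tlr9het and Tlr779 and did not in Tlr997. The log2 fold change was 0.10 (95% CI -0.06 to 0.26, adjusted p = 0.25) in Tlr9het, -0.83 (95% CI -0.996 to -0.668, adjusted p = 3.5e-07) in Tlr997, which is 56.2% of the unstimulated level, and 0.11 (95% CI -0.12 to 0.34, adjusted p = 0.35) with CL097 in Tlr779.

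Between Tlr997 and Tlr9het no chain was called before stimulation. Of 11494 tested genes 2 were called (0.0174% higher and 0% lower by limma, with 1237 genes at an unadjusted p under 0.05), and the log2 differences (Tlr997 minus Tlr9het) ran from -0.31 for Il6ra (95% CI -0.82 to 0.20) to 0.12 for Il2ra (95% CI -0.17 to 0.40). With CpG, all 10 differences were below 0, from -0.89 to -0.01, with a median of -0.27 against 0.00 over all tested genes. Of these, 2 were called lower and none higher, where 1.47% of tested genes were called lower and 1.26% higher. These were Ifngr1, at 53.9% of the Tlr9het level (-0.89, 95% CI -1.06 to -0.73, adjusted p = 2.7e-05), and Il10ra, at 58.1% (-0.78, 95% CI -0.93 to -0.64, adjusted p = 2.5e-05). The other 8 ranged from -0.39 for Il21r (adjusted p = 0.078) to -0.01 for Il2rg (adjusted p = 0.96), and those of Il2rg and Il6ra changed sign when 1 library was left out.

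The test of the difference between the CpG responses, which shares its CpG libraries with that comparison, called the same 2 chains. The response in Tlr997 minus that in Tlr9het was -0.93 for Ifngr1 (95% CI -1.16 to -0.70, adjusted p = 0.00096) and -0.80 for Il10ra (95% CI -1 to -0.599, adjusted p = 0.00097), where 0.853% of tested genes were called lower and 0.687% higher. By unadjusted p they ranked 12th and 13th of 11494 genes. Leaving out each of the 12 libraries in turn gave -0.996 to -0.875 for Ifngr1 and -0.86 to -0.75 for Il10ra. The summed B cell markers with CpG also stood apart between these genotypes, at 1650 to 1720 CPM in Tlr9het and 2600 to 3160 CPM in Tlr997, as did those of plasma cells (28.4 to 36.7 and 20.8 to 22.5 CPM) and plasmacytoid dendritic cells (5.00 to 6.35 and 2.63 to 4.56 CPM). The monocyte and macrophage markers overlapped, at 119 to 133 and 76.2 to 155 CPM, and so did the T cell, NK cell, neutrophil and erythroid sums. Their part in the difference was not tested.

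**Figure D3:**
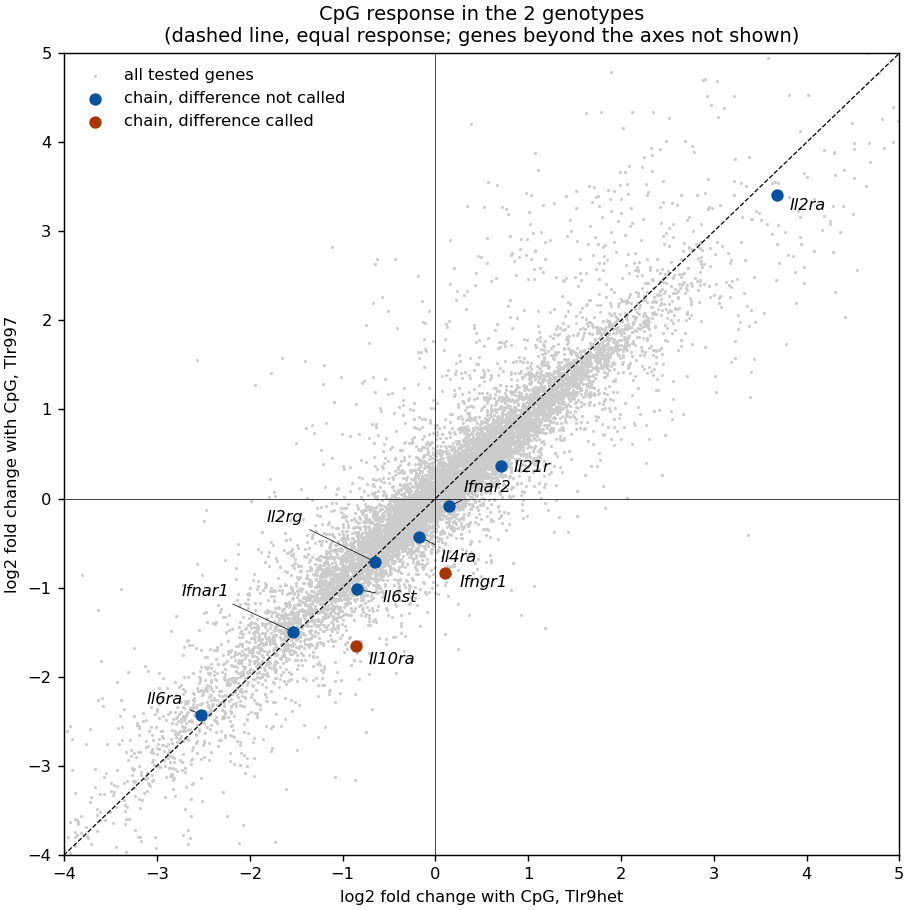
Log2 fold change with CpG in Tlr9het (x axis) against Tlr997 (y axis) for all tested genes (gray) and the 10 chains (labelled points), with a dashed line at equal responses. Ifngr1 (0.10 and -0.83) and Il10ra (-0.86 and -1.65) lie below the line and are the chains whose difference was called, and Ifnar1, Il6ra and Il2rg lie close to it.

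Because chains work in pairs, the level of each was also set against its partner within a library, per kilobase of exon. Ifnar1 minus Ifnar2 was 0.93 ± 0.17 log2 units in unstimulated Tlr9het and -0.75 ± 0.05 with CpG (mean ± SD, n = 3), 0.83 ± 0.26 and -0.58 ± 0.04 in Tlr997, and 0.69 ± 0.06 and -0.27 ± 0.13 with CL097 in Tlr779. Per kb, the order of the pair thus turned over in every stimulated library. In log2 CPM without this scaling, Ifnar1 stayed above Ifnar2 in every stimulated library (6.33 to 6.38 against 6.26 to 6.30 in Tlr9het with CpG). The sign of such a difference thus depends on the exon lengths used, here 5940 bases for Ifnar1 and 3329 for Ifnar2. Il2ra minus Il2rg was -4.19 ± 0.35 in unstimulated Tlr9het and 0.15 ± 0.07 with CpG, -4.11 ± 0.29 and 0.00 ± 0.06 in Tlr997, and -4.20 ± 0.24 and -0.91 ± 0.14 with CL097. Per kb, Il2ra thus stood about level with Il2rg with CpG and below it with CL097. Without this scaling Il2ra was above Il2rg in every stimulated library (9.18 to 9.42 against 8.94 to 8.97 log2 CPM with CL097). Ifngr1 minus Ifngr2 went from -0.34 ± 0.08 to 0.43 ± 0.11 with CpG in Tlr9het, from -0.05 ± 0.14 to -0.22 ± 0.03 in Tlr997, and from 0.23 ± 0.08 to 0.53 ± 0.11 with CL097 in Tlr779. Il10ra minus Il10rb was 1.59 ± 0.09 and 1.60 ± 0.02 in Tlr9het without and with CpG, 1.70 ± 0.11 and 0.97 ± 0.12 in Tlr997, and 1.34 ± 0.07 and 1.07 ± 0.14 without and with CL097 in Tlr779. The Il10ra lead thus narrowed without overlap in Tlr997 and Tlr779, and the groups overlapped in Tlr9het. Il6ra minus Il6st fell from -1.48 ± 0.07 to -3.16 ± 0.23 in Tlr9het, from -1.69 ± 0.09 to -3.10 ± 0.54 in Tlr997 and from -2.21 ± 0.11 to -4.39 ± 0.16 with CL097. These differences of levels were not tested beyond the tests of the single chains.

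**Figure D4:**
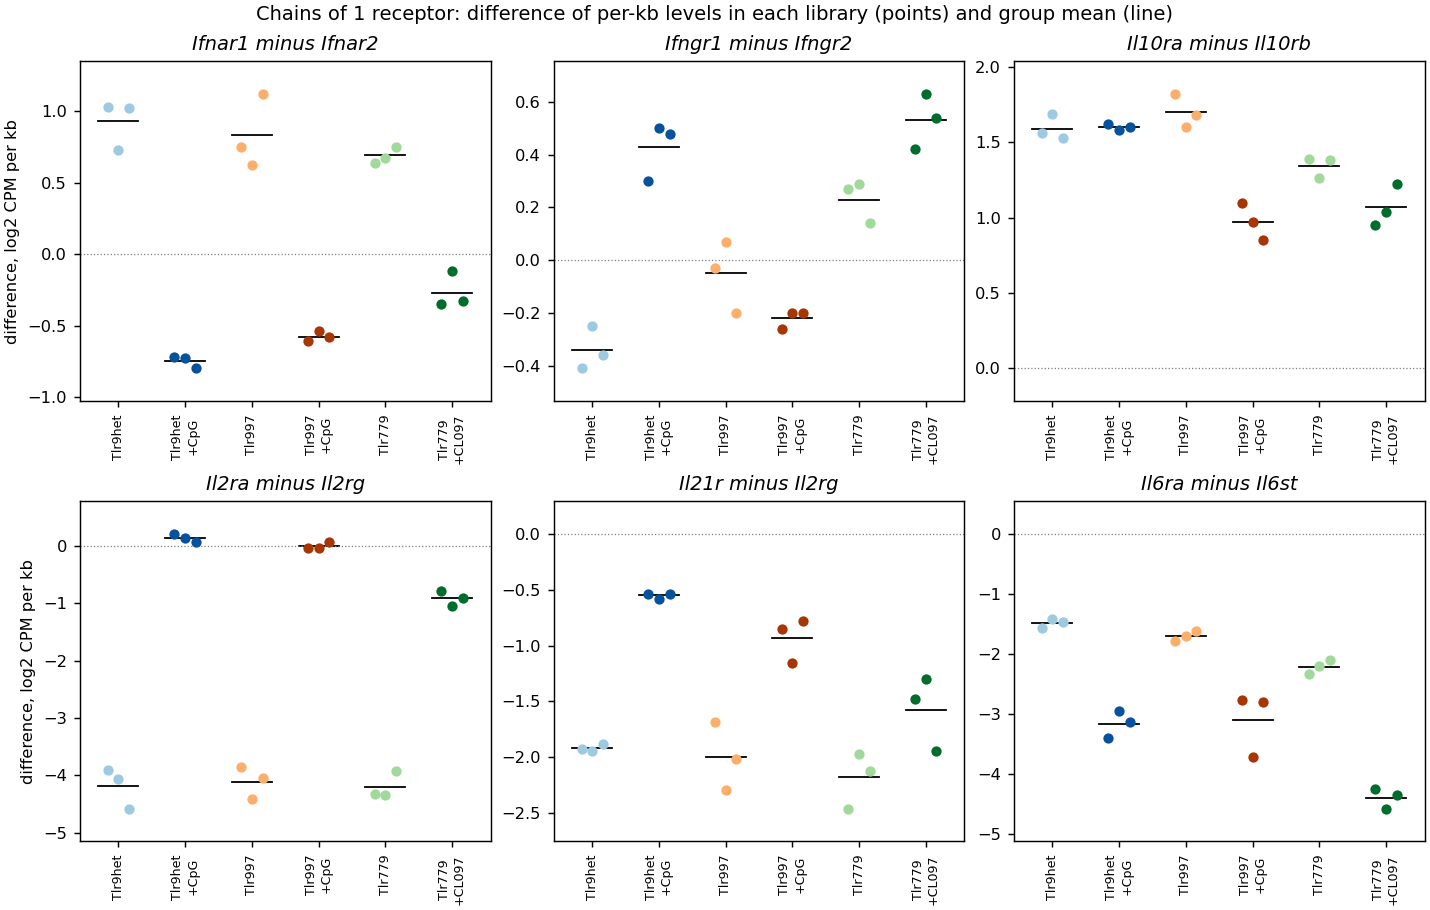
Difference between 2 chains of 1 receptor in log2 CPM per kb (y axis) in each of the 18 libraries, with the group mean as a line and a dotted line at equal levels. Per kb, Ifnar1 is above Ifnar2 in all 9 unstimulated libraries (0.62 to 1.12) and below it in all 9 stimulated libraries (-0.80 to -0.12). The place of the dotted line depends on the exon lengths used.

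Of 21 chains that pair with the members or belong to the same receptor families, 15 passed the filter on low values. Among these, 5 rose and 5 fell with CpG in Tlr9het, 4 and 5 in Tlr997, and 3 and 4 with CL097 in Tlr779. The shares of all tested genes called higher were 29.7%, 29.6% and 22.7% in these responses, and those called lower 28.2%, 26% and 23.6%. A chain could also pass the filter through its stimulated or its unstimulated libraries alone, so these counts are a description only. Ifnlr1, which pairs with Il10rb in the receptor for type III interferon, rose from 1.01 to 1.34 log2 CPM to 5.98 to 6.11 in Tlr9het (log2 fold change 4.82), and by 4.26 in Tlr997 and 4.33 with CL097. With CpG it was lower in Tlr997 than in Tlr9het (-0.83, adjusted p = 0.049), while the difference of responses was not called (-0.56, adjusted p = 0.42). Il15ra, which presents IL-15, rose by 2.50, 2.56 and 2.44, and Il7r rose by 0.70, 1.70 and 1.26 on the log2 scale. Il12rb2 rose with CpG (1.34 and 1.38) and was not called with CL097 (0.90, adjusted p = 0.068), and Il20rb was called in Tlr9het alone (1.17). Il9r, which pairs with Il2rg, fell by 2.65, 2.35 and 2.68, Il27ra, which pairs with Il6st, fell by 1.23, 0.79 and 1.22, and Lifr fell in all 3, to values below 0 log2 CPM where its fold change is poorly defined. Il2rb, the chain that joins Il2ra and Il2rg in the IL-2 receptor, was not called (0.70 in Tlr9het, adjusted p = 0.073, 0.08 in Tlr997 and 0.23 in Tlr779).

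The ligands of these receptors were mostly low before stimulation. Of 19 ligand genes, 9 passed the filter in the Tlr7-/- arm and 6 in the Tlr779 arm, and since a ligand could pass through its stimulated libraries alone, no count over them is given as a result. Il10 was at 0.87 to 1.59 log2 CPM in unstimulated Tlr9het libraries and at 5.52 to 5.68 with CpG (log2 fold change 4.49, SE 0.32, adjusted p = 2.2e-08), beside the fall of Il10ra. Il6 was at 1.47 to 2.34 without and 6.77 to 6.87 with CpG in Tlr9het (4.93, SE 0.37, adjusted p = 4.5e-08) and rose by 4.39 in Tlr997 and 6.66 with CL097 in Tlr779, beside the fall of Il6ra. Ifnb1 was below -3 log2 CPM in every unstimulated library and at 1.51 to 2.16 with CpG in Tlr9het and -0.32 to 1.12 in Tlr997. Neither Il10 (-0.42, adjusted p = 0.55), Il6 (-0.63, adjusted p = 0.41) nor Ifnb1 (-1.33, adjusted p = 0.33) was called between the genotypes with CpG, while Osm (oncostatin M), which signals through Il6st, was lower in Tlr997 (-0.73, adjusted p = 0.025). The difference between the CpG responses of Osm was not called (-0.52, adjusted p = 0.32).

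Among 20 kinases, STATs and feedback inhibitors that act below these receptors, all passed the filter, and 7 rose and 7 fell with CpG in Tlr9het, 8 rose and 6 fell in Tlr997, and 9 rose and 2 fell with CL097. Beside these counts, 29.7%, 29.6% and 22.7% of all tested genes were called higher, and 28.2%, 26% and 23.6% lower. The inhibitor Socs3 rose by 5.54, 4.27 and 5.28 on the log2 scale, and Stat5a, used by the IL-2 receptor, rose by 2.05, 2.63 and 2.18. The kinase Tyk2, which binds Ifnar1, fell by 1.70, 1.40 and 1.02. Stat2, which carries type I interferon signals, fell by 1.53 with CpG in Tlr9het and by 0.74 in Tlr997. With CpG, 3 of the 20 were higher in Tlr997, among them Usp18 (1.21) and Stat2 (0.72), and 3 were lower (Socs3 -1.45, Ptpn1 -1.03 and Socs1 -0.83). The shares of all tested genes called there were 1.26% higher and 1.47% lower. In the difference of responses 3 were called higher (Stat2 0.79, Stat5a 0.57 and Stat5b 0.54) and 2 lower (Socs1 -1.24 and Ptpn1 -1.01). Over all tested genes the shares for this difference were 0.687% higher and 0.853% lower.

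Of 27 cytokine receptor chains of other families, 20 passed the filter, and 4 rose and 4 fell with CpG in Tlr9het, 5 and 4 in Tlr997, and 8 and 6 with CL097. Over all tested genes 29.7%, 29.6% and 22.7% were called higher in these responses, and 28.2%, 26% and 23.6% lower. The filter could be passed in 1 state alone here too, so these counts are a description only. Il18rap rose by 2.53, 2.39 and 2.77, and Tgfbr1 fell by 1.05, 0.96 and 1.15 on the log2 scale. None of these 20 was called between the genotypes. The proteases Adam10 and Adam17, which cleave receptors such as Il6ra from the surface, fell in all 3 responses (Adam10 by 1.21, 1.14 and 0.63, Adam17 by 0.76, 0.81 and 0.58).

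Across the 12 libraries of the Tlr7-/- arm, chains that responded together were correlated, a description that rests mainly on the step between unstimulated and stimulated libraries. Pearson's r was 0.98 between Ifnar1 and Il6ra and between Ifnar1 and Il2rg, and -0.98 between Ifnar1 and Il2ra. Ifnar2 had r between -0.15 and 0.54 with the other chains. The gene most like each chain among 11484 others was Plekha2 for Ifnar1 (r = 0.999), Tmcc3 for Il2ra (0.998), Maml1 for Il6st (0.996), Tm6sf1 for Il2rg (0.994), Med14 for Il6ra (0.994), Cd38 for Il10ra (0.988), Lrmp for Il21r (0.955), Foxo1 for Ifngr1 (0.946), Trappc9 for Ifnar2 (0.921) and Jund for Il4ra (0.908).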

How the data were processed

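RNA from 18 B cell cultures (6 groups of 3) was sequenced from TruSeq mRNA libraries. Per the labels and the study's methods, the authors trimmed reads (Trim Galore 0.6.5), checked them (FastQC 0.11.7), aligned them to mm10 (STAR 2.6.1a), counted them per gene (featureCounts, Subread 2.0.1) and applied quantile normalization and voom (limma). The deposited values are log2 CPM with no counts, so depth is unknown. A further step left a trace: of 6209 genes below -4 in all 18 libraries, 6008 held a single value per replicate number, and for 524 of these it differed between numbers, as if an offset per number had been removed. That step is not given in the sources used here, and it can narrow the spread between replicates.

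Genes with at least 3 fitted libraries over 0 log2 CPM were tested with limma 3.58.1 in R 4.3.3 (moderated test with a variance trend, Benjamini-Hochberg adjustment over all tested genes), with the 12 libraries of the Tlr7-/- arm in 1 model (11494 genes) and the 6 Tlr779 libraries in another (11082 genes). Called means adjusted p below 0.05 and absolute log2 fold change above 0.5. The fit was tested on simulated data. Levels per kb used the joined exons of GENCODE M21. Tlr7 wild-type control libraries were not analysed here.

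The members and gene lists were chosen with earlier results of these data known. All 10 members were described. Listed genes were named by the largest calls (at most 3 per direction and comparison), and chains that pair with members could all be named. Values of named genes that were not called in a comparison were added after all values were seen. Markers with no row under their symbol were left out of the sums. The labels give 3 mice per genotype but do not tie a replicate number to a mouse, so p-values measure the spread between these samples, which may be technical.

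Same-numbered libraries without and with agonist deviated together from their group means in Tlr9het (correlations over genes 0.51, 0.29 and 0.51) and Tlr779 (0.25, 0.49 and 0.33), but not in every pair of Tlr997 (0.37, 0.083 and 0.025), and a fit with the number as a block was an alternative. Other alternatives changed the filter, threshold, variance model, pseudocount, scaling, libraries fitted and each library in turn.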

Additional observations from a re-analysis of the deposited data

Results flagged for a closer look

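The response to CpG differed between the genotypes for 2 chains by limma's test of the difference itself. Il10ra fell in both, and the Tlr997 response minus the Tlr9het response was -0.80 on the log2 scale (adjusted p = 0.00097). Ifngr1 differed by -0.93 (adjusted p = 0.00096). For Ifngr1 every same-numbered pair of libraries moved up in Tlr9het (by 0.08, 0.11 and 0.10, mean 0.10) and down in Tlr997 (by 0.96, 0.85 and 0.69, mean -0.83). The mean rise in Tlr9het was under the fold threshold. It was within the spread between its libraries in limma's fit without a replicate block (adjusted p = 0.25), which does not use the pairs. No cause was tested.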

How the results depend on the processing

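Of 60 results (10 chains in 6 comparisons), 23 were called. None of the 23 changed sign under any alternative run, 13 were lost when the fold threshold was raised to 1, and none was lost under any other alternative. With that threshold the called chains went from 7 to 3 with CpG in Tlr9het and from 7 to 5 in Tlr997, where Il2rg and Ifngr1 were lost. They went from 2 to 0 between the genotypes with CpG, from 2 to 0 for the difference of responses and from 5 to 2 with CL097. With no fold threshold Il4ra (-0.43) and Il21r (0.36) were also called with CpG in Tlr997. Leaving out 1 library at a time gave 7 to 7 called chains with CpG in Tlr9het, 7 to 8 in Tlr997, 0 between the genotypes unstimulated, 2 with CpG, 2 for the difference and 5 to 6 with CL097.

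For uncalled results these fits changed sign, with ranges between the unstimulated genotypes of -0.15 to 0.068 for Il4ra, -0.152 to 0.108 for Il21r, -0.021 to 0.056 for Il10ra, -0.025 to 0.276 for Il2ra, -0.004 to 0.093 for Il2rg, -0.185 to 0.038 for Il6st, -0.095 to 0.076 for Ifnar2 and -0.018 to 0.093 for Ifngr1. The ranges were -0.04 to 0.038 for Il2rg and -0.401 to 0.137 for Il6ra between the genotypes with CpG, -0.092 to 0.446 for Il6ra and -0.043 to 0.084 for Ifnar1 for the difference, and -0.007 to 0.293 for Il4ra with CL097. The cause was not tested.

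Counts over all genes moved more. Genes called between the genotypes with CpG went from 314 to 188 without the low-value filter, 187 without Tlr9het replicate 1 with CpG, 74 at fold threshold 1 and 680 with none. Genes called for the difference went from 177 to 78 without the filter, 98 without the variance trend, 46 at fold threshold 1, 328 with the replicate block within genotype, 295 without unstimulated Tlr997 replicate 3, 87 without unstimulated Tlr9het replicate 1, and 101, 100 and 90 without each Tlr9het library with CpG. At fold threshold 1 the responses fell from 6650 to 4058 (Tlr9het), 6388 to 3767 (Tlr997) and 5133 to 2581 (CL097) genes. With the replicate number as a block, 7, 7, 0, 2, 2 and 5 chains were called in the 6 comparisons, and no call of a chain was lost. With equal groups a block leaves the fold changes as they are. Every uncalled chain was under the fold threshold, the nearest being Il21r with CL097 (0.49). The block could therefore remove calls of chains but not add any. The depth behind a value is unknown, which limits Il6ra with agonist most.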
